A study of Ostrinia furnacalis with 9 samples.

Results

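H3K27me3 peaks of pre-diapause heads of the Asian corn borer, Ostrinia furnacalis, were set against those of non-diapause heads. The material was the authors' broad-peak list of each stage, with the 1 sequence whose name begins with NC_ left out. That left 6539 pre-diapause and 3755 non-diapause peaks, 10294 of the 29330 peaks in the 6 lists of the series. The series has 9 samples, 1 for each of 2 marks (H3K27me3 and H3K9me3) and 1 input at each of 3 stages. All samples were whole larval heads, a mixture of tissues, and neither a strain nor a genotype is given. The stock was founded with larvae from a corn field and reared at 27 °C, at a humidity of 65%, under days of 16 h light to 8 h dark. Pre-diapause larvae spent 20 days at 20 °C under days of 12 h light to 12 h dark, from the moult into the fourth instar on. For non-diapause larvae the labels name only the stock conditions, so temperature, day length and state differed together. The age of the non-diapause larvae and the number of heads behind a library are not given in the sources used here.

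Diapause is a hormonally timed arrest that lets an insect larva pass the cold season, and short days and cool air induce it. H3K27me3 is the trimethylated form of lysine 27 of histone H3. In Drosophila the Polycomb methyltransferase E(z) writes it and Polycomb complexes read it, and it keeps developmental regulators silent in cells where they are not used. It is best known from wide domains over gene clusters, and it can spread along chromatin from the place where it was laid down. A change between stages can thus take the form of wider peaks, of neighbouring peaks that join, or of peaks at places apart from the earlier ones.

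Each stage had 1 list of this mark, so replicate error is unknown and the stages were compared without a test. Read depth is unknown. Intervals in parentheses after a share are exact 95% intervals by the Clopper-Pearson method. They cover counting error only and take neighbouring peaks as independent. A place without a peak is one without a call in that list, and the mark may still be present there.

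The pre-diapause list was 1.74 times as long as the non-diapause list and covered 1.87 times as many bases. Its peaks covered 4.45 Mb at pre-diapause, against 2.38 Mb at non-diapause. The typical peak differed little, with a median width of 514 bp at pre-diapause and 489 bp at non-diapause. The middle 50% of widths lay between 372 and 797 bp at pre-diapause and between 373 and 751 bp at non-diapause. The wide end differed more. Peaks over 2000 bp numbered 167 (2.55%) at pre-diapause and 57 (1.52%) at non-diapause, and those over 4000 bp numbered 17 at pre-diapause and 2 at non-diapause. The widest peak was 6877 bp at pre-diapause and 4577 bp at non-diapause. Both lists had a floor of width near 300 bp (292 bp at pre-diapause and 298 bp at non-diapause), and no peaks of a list lay closer to each other than 601 bp.

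Most non-diapause places were called again at pre-diapause, and nearly as many further places were added. A peak was counted as kept if at least 1 bp of it lay in a peak of the other list. At pre-diapause 3186 peaks, 48.7% of the list (47.5–49.9), met no non-diapause peak and are called pre-diapause-only, or new, while 3353 were kept. At non-diapause 364 peaks, 9.69% of the list (8.77–10.7), met no pre-diapause peak and are called non-diapause-only, while 3391 were kept. The border of this split was thinly filled. Among overlapping pairs 2 shared 50 bp or less (14 and 29 bp), and 1 pre-diapause-only peak lay within 50 bp of a non-diapause peak, at a gap of 5 bp. When the pre-diapause list was shortened to its 3755 strongest peaks by −log10 q, pre-diapause-only peaks were 1221 (32.5%) and non-diapause-only peaks 1198 (31.9%). Nearly all overlaps were 1-to-1, so the surplus of added over missing calls follows the lengths of the lists and is not a separate result. In the lists of equal length the weakest peak had a −log10 q of 5.99 at pre-diapause and 2.04 at non-diapause.

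Counted in bases, new places made a larger part of the pre-diapause coverage than the flanks of kept ones. Bases inside peaks of both lists came to 2.07 Mb, which is 46.5% of the pre-diapause and 86.7% of the non-diapause coverage. Kept pre-diapause peaks reached over a further 0.744 Mb outside any non-diapause peak (16.7% of the pre-diapause coverage). Pre-diapause-only peaks added 1.64 Mb (36.8%). In the other direction, 0.139 Mb (5.81%) of the non-diapause coverage lay in flanks of kept peaks that had no call at pre-diapause, and 0.178 Mb (7.48%) in non-diapause-only peaks.

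Kept peaks were mostly wider at pre-diapause, by a modest margin. In 3301 cases 1 pre-diapause peak met 1 non-diapause peak and neither met another. The median width of these pairs was 641 bp at pre-diapause and 496 bp at non-diapause. The pre-diapause peak was the wider in 2630 pairs, or 79.7% (78.3–81.0), the narrower in 659 and equal in 12. The median ratio of the widths, pre-diapause over non-diapause, was 1.15, and the middle 50% of ratios ran between 1.02 and 1.37. In bases the median difference was 79 bp. A width at least 1.5 times larger was found at pre-diapause in 634 pairs, or 19.2%, and at non-diapause in 73 pairs, or 2.21%.

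The difference lay on both sides of the peaks. The left edge lay a median of 37 bp farther out at pre-diapause and the right edge 34 bp, and the midpoints were a median of 34.5 bp apart. Both edges lay farther out in 1841 pairs (55.8%), 1 edge in 1231 (37.3%) and neither in 229 (6.94%). Width order was largely shared between stages, with a Spearman rho across pairs of 0.73 for width and 0.82 for the authors' fold enrichment. These rho values describe peaks of 1 library a side that share their DNA sequence, and they carry no p.

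**Figure D1:**
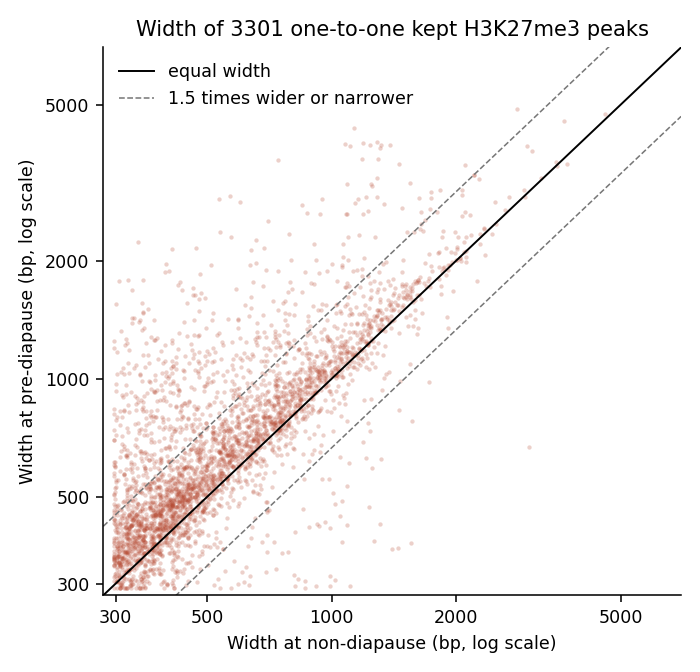
Each point is 1 of the 3301 H3K27me3 peaks kept as a 1-to-1 pair, with its width at pre-diapause on the vertical and at non-diapause on the horizontal axis, both in bp on log scales. The solid line marks equal width and the dashed lines a ratio of 1.5. Of the points 79.7% lie above the solid line, 634 on or above the upper dashed line and 73 on or below the lower one.

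Wider calls went together with stronger calls. The −log10 q of a pair was higher at pre-diapause in 2667 pairs, or 80.8%. Among these 83.3% (81.8–84.7) were wider at pre-diapause, with a median ratio of 1.16. Among the other 634 pairs, whose −log10 q was not higher at pre-diapause, 64.5% (60.6–68.2) were still wider there, with a median ratio of 1.08. By quartile of the non-diapause −log10 q, weak to strong, the median ratio was 1.24, 1.17, 1.14 and 1.10, and the share that was wider was 77.4, 79.9, 79.2 and 82.3%. The part of call strength in the difference of width was not tested.

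Pairs with a large gain of width had a lower median fold at pre-diapause than all pairs. At pre-diapause 101 pairs were wider by over 1000 bp and at non-diapause 4 were. The median fold enrichment of those 101 in the pre-diapause list was 2.91, between 1.71 and 6.88, against a median of 3.80 over all pairs. This is the fold of the widened peak itself, and the part of width in it was not tested. The median width of the 101 was 2294 bp at pre-diapause and 739 bp at non-diapause. The 5 largest gains lay on NW_021137396.1 at 103776–108135 (4360 bp at pre-diapause, 1131 bp at non-diapause), NW_021137744.1 at 86954–90912 (3959 bp at pre-diapause, 1075 bp at non-diapause), NW_021132579.1 at 161948–165560 (3613 bp at pre-diapause, 740 bp at non-diapause), NW_021133072.1 at 35936–39865 (3930 bp at pre-diapause, 1104 bp at non-diapause) and NW_021132152.1 at 1062201–1066186 (3986 bp at pre-diapause, 1189 bp at non-diapause). Positions are those of the pre-diapause peaks. The pre-diapause peak held the whole non-diapause peak in each of the 5.

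In 4 of these 5 the enrichment was shallow at both stages and the place was wide in the H3K9me3 list too. Their fold enrichment was 1.86, 1.82, 1.71 and 1.80 in the pre-diapause list and 1.87, 1.86, 1.78 and 1.80 in the non-diapause list, for NW_021137396.1, NW_021137744.1, NW_021133072.1 and NW_021132152.1 in that order. The pre-diapause H3K9me3 peaks there were 4647, 4387, 4635 and 4526 bp wide. The fifth, on NW_021132579.1, had a fold of 3.16 at pre-diapause and 2.98 at non-diapause and a pre-diapause H3K9me3 peak of 644 bp. The 3 largest losses were on NW_021135154.1 at 1599389–1602393 (670 bp at pre-diapause, 3005 bp at non-diapause), NW_021131540.1 at 121270–122820 (380 bp at pre-diapause, 1551 bp at non-diapause) and NW_021135000.1 at 60540–61984 (369 bp at pre-diapause, 1445 bp at non-diapause), by the positions of the non-diapause peaks.

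Few peaks joined neighbours, and few had a close neighbour to join. Of the 3755 non-diapause peaks 134 (3.57%) lay within 1 kb of another one and 626 (16.7%) within 5 kb. Non-diapause peaks lay at least 602 bp apart as deposited, so no shorter gap could be counted as closed. At pre-diapause 38 peaks met 2 non-diapause peaks and 3 met 3, so that 41 pre-diapause peaks stood over 85 non-diapause peaks. The opposite, a non-diapause peak that met 2 pre-diapause peaks, occurred 6 times. The gaps closed by the 41 peaks, taking the largest within each, were between 614 and 3152 bp with a median of 926 bp. The joined peaks were between 1372 and 6877 bp wide, with a median of 2711 bp. With −log10 q of at least 3 in both lists there were 27 joined peaks and 2 divided ones, and in lists of equal length 22 and 1.

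The 5 joined peaks named by number of partners and width show how far single calls reached. At NW_021135154.1 1820193–1827069 a peak of 6877 bp with a fold of 3.69 took in 3 non-diapause peaks that together were 1955 bp wide. At NW_021137791.1 347356–353898 a peak of 6543 bp (fold 3.06) took in 3 that together were 4567 bp wide. At NW_021135906.1 19348–24447 a peak of 5100 bp took in 3 that together were 1624 bp wide. On NW_021131485.1 a peak of 6660 bp at 545150–551809 (fold 2.98) and another of 5716 bp at 506862–512577 (fold 3.06) each took in 2. All 5 met a diapause H3K27me3 peak, and 1 of them, on NW_021137791.1, met a pre-diapause H3K9me3 peak. Over all 41 joined peaks 35 met a diapause H3K27me3 peak, against 65.9% of kept and 45.9% of all pre-diapause peaks. A pre-diapause H3K9me3 peak was met by 24 of the 41, against 83.8% of kept and 66.2% of all pre-diapause peaks. Joined peaks had a median width of 2711 bp, against 647 bp for kept and 514 bp for all pre-diapause peaks. They could thus meet a peak more easily, and the part of width in these shares was not tested. The widest divided peak lay on NW_021136315.1 at 9362–12658, where 2 pre-diapause peaks stood in place of 3297 bp. The next lay on NW_021131306.1 at 530003–533075 (3073 bp) and on NW_021137947.1 at 295293–297736 (2444 bp).

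Joined peaks were most numerous on 1 scaffold, where they lay together. NW_021131485.1 held 6 of the 41, all between positions 494338 and 551809, and this stretch of 57.5 kb was singled out after its values were seen. It had 12 pre-diapause peaks over 37.2 kb, or 64.7% of the stretch, and 14 non-diapause peaks over 18.1 kb, or 31.5%. The widest was 6660 bp at pre-diapause and 4225 bp at non-diapause. Folds were even and low, between 2.42 and 3.42 at pre-diapause and between 2.29 and 3.79 at non-diapause. Of the 12 pre-diapause peaks 4 met no non-diapause peak. The diapause H3K27me3 list covered 60.5% of the stretch with 15 peaks, and none of the 3 H3K9me3 lists had a peak in it. Coverage by H3K27me3 peaks was thus 31.5, 64.7 and 60.5% at non-diapause, pre-diapause and diapause. The scaffold with the next highest number of joined peaks, NW_021135154.1, had 4 of them within 703 kb, and H3K27me3 peaks covered 13.1% of that stretch at pre-diapause and 8.36% at non-diapause.

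At places where the widths of the pair differed most, the median diapause width lay between theirs. Of the 1-to-1 pairs 2134 also had a 1-to-1 partner in the diapause H3K27me3 list, and only these were compared. In 404 of them the pre-diapause peak was at least 1.5 times as wide as the non-diapause peak. Their median width was 461.5 bp at non-diapause, 1029.5 bp at pre-diapause and 693 bp at diapause. In 42 the non-diapause peak was at least 1.5 times as wide as the pre-diapause peak, and the medians were 923 bp at non-diapause, 409.5 bp at pre-diapause and 655.5 bp at diapause. In the remaining 1688 pairs they were 563.5 bp at non-diapause, 638 bp at pre-diapause and 525 bp at diapause. The sets were chosen on the widths in the other 2 lists, so these medians are a description only.

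Pre-diapause-only peaks were narrow and weak beside kept ones. Their median width was 408 bp, against 647 bp for kept pre-diapause peaks, and 33.0% of them, against 7.19% of kept ones, were under 350 bp. Their median fold was 2.96, against 3.79 for kept peaks, and their median −log10 q was 5.05, against 9.58 for kept peaks. Only 9 of the 167 pre-diapause peaks over 2000 bp were pre-diapause-only. The other 158 were kept, and 108 of those met no non-diapause peak over 2000 bp. Non-diapause-only peaks had nearly the same width as pre-diapause-only ones, with a median of 404.5 bp, and their median −log10 q was 3.48. From the weakest to the strongest quartile of pre-diapause −log10 q, pre-diapause-only peaks made up 76.2, 61.4, 43.2 and 14.1% of the list.

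**Figure D2:**
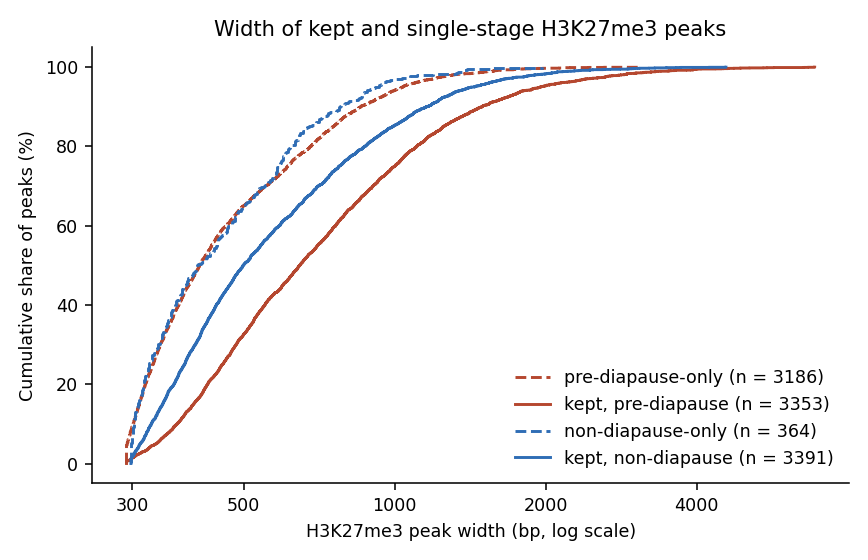
Cumulative share of H3K27me3 peaks (vertical axis, %) by peak width (horizontal axis, bp, log scale) for the 3186 pre-diapause-only and 3353 kept peaks of the pre-diapause list and the 364 non-diapause-only and 3391 kept peaks of the non-diapause list. The dashed curves of single-stage peaks run together, with medians of 408 and 404.5 bp. The curve of kept peaks lies farther right at pre-diapause (median 647 bp) than at non-diapause (499 bp).

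The strongest pre-diapause-only peaks had H3K9me3 called at the same place and stage, as most strong pre-diapause peaks did. The 5 with the highest fold were those at NW_021131459.1 82–399 (fold 9.64), NW_021130331.1 266073–266510 (8.37), NW_021132824.1 373106–373630 (7.79), NW_021131337.1 497148–497570 (7.38) and NW_021130308.1 490834–491266 (7.05). They were between 318 and 525 bp wide. All 5 met a pre-diapause H3K9me3 peak, with folds of 10.0, 6.01, 9.43, 5.61 and 5.20 in that list. Such a peak was met by 66.2% of all pre-diapause peaks. In the strongest quartile of −log10 q it was met by 74.5% of pre-diapause-only and 98.0% of kept peaks. Only NW_021132824.1 met a non-diapause H3K9me3 peak (fold 4.01), and only NW_021131459.1 met a diapause H3K27me3 peak (fold 8.87).

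The widest pre-diapause-only peaks looked different. They lay at NW_021135154.1 2025222–2028307 (3086 bp), NW_021130297.1 439696–442304 (2609 bp), NW_021131896.1 438012–440449 (2438 bp), NW_021135154.1 1565586–1567826 (2241 bp) and NW_021130551.1 557222–559410 (2189 bp). Their folds were between 2.61 and 2.89. Of these 5 the peak on NW_021130297.1 met H3K9me3 peaks, at pre-diapause and non-diapause, and the other 4 met none at any stage. Among all pre-diapause-only peaks 47.7, 28.1 and 18.5% met H3K9me3 at pre-diapause, non-diapause and diapause. Both peaks on NW_021135154.1 and that on NW_021131896.1 met a diapause H3K27me3 peak, with folds of 2.73, 3.09 and 2.96. Such a peak was met by 24.9% of all pre-diapause-only peaks, whose median width of 408 bp gives less room for an overlap.

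New peaks were mostly not beside old ones. On scaffolds that had a non-diapause peak, the gap from a pre-diapause-only peak to the nearest one had a median of 30.8 kb, and the middle 50% of gaps ran between 10.4 and 71.5 kb. Of the 3186 pre-diapause-only peaks 99 (3.11%, 2.53–3.77) lay within 1 kb of a non-diapause peak and 446 (14.0%, 12.8–15.3) within 5 kb. Peaks of the pre-diapause list lay at least 601 bp apart, so none nearer than that to a kept pre-diapause peak could be listed as new. The part of this in the low shares was not tested. The share within 5 kb depended on the processing, with 23.0% when an overlap of 50% of the peak was asked for, 8.52% in lists of equal length and 7.38% when neighbours under 2000 bp apart were joined. A gap over 100 kb was found for 489 (15.3%), and 272 (8.54%) had no non-diapause peak on their scaffold. Non-diapause peaks lay at a similar spacing from each other, with a median gap of 29.1 kb to the nearest other one and 16.7% (15.5–17.9) within 5 kb. Among themselves, pre-diapause-only peaks had a median gap of 36.2 kb to the nearest other one.

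Non-diapause-only peaks lay nearer to the other list, with a median gap of 12.8 kb to the nearest pre-diapause peak and 29.4% (24.8–34.4) within 5 kb. The pre-diapause list has more peaks to be near to, and the part of list length in the shorter gap was not tested. Leaving out the scaffold NW_021135154.1, with the most pre-diapause-only peaks, gave a median gap of 32572 bp from those peaks to non-diapause peaks. The 3 largest gaps on a scaffold were those of peaks at NW_021135175.1 1092190–1092481 (881 kb), NW_021135175.1 993147–993483 (782 kb) and NW_021133896.1 660351–660725 (579 kb).

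**Figure D3:**
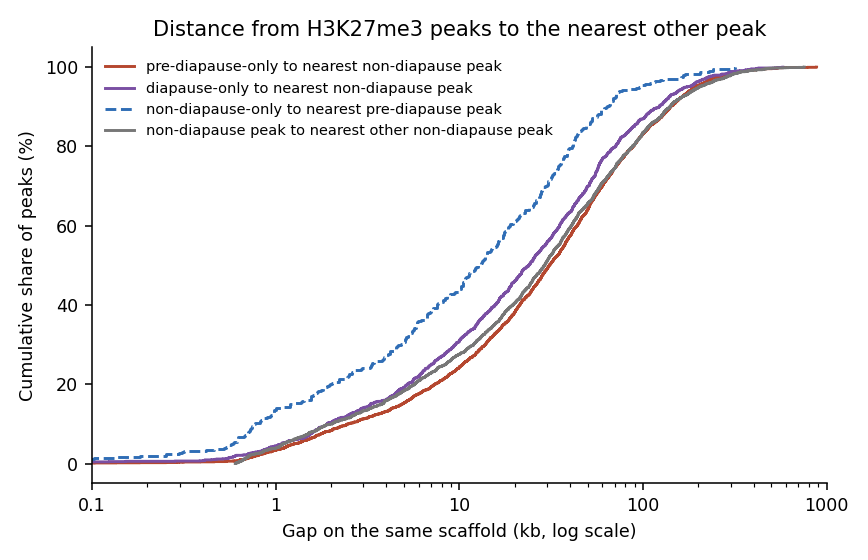
Cumulative share of peaks (vertical axis, %) by the gap to the nearest peak on the same scaffold (horizontal axis, kb, log scale, with gaps under 0.1 kb left of the axis). The red curve of pre-diapause-only peaks to non-diapause peaks (median 30.8 kb) runs close to the grey curve of the spacing of non-diapause peaks among themselves (29.1 kb). The curve of diapause-only peaks (23.8 kb) and that of non-diapause-only peaks to pre-diapause peaks (12.8 kb) lie farther left.

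The few new peaks close to old ones differed from the distant ones. The 99 within 1 kb of a non-diapause peak had a median width of 456 bp and a median −log10 q of 3.72. The 1048 more than 50 kb away had 392 bp and 5.44. A pre-diapause H3K9me3 peak was met by 26.3% (17.9–36.1) of the near and 49.1% (46.1–52.2) of the distant set. A diapause H3K27me3 peak was met by 30.3% (21.5–40.4) of the near and 20.3% (17.9–22.9) of the distant set, and these intervals overlap. Among the 347 peaks at 1 to 5 kb the share was 31.4% (26.6–36.6), above the interval of the distant set.

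Places in the non-diapause list alone were few and mostly weak. The 5 with the highest fold were at NW_021134528.1 136–586 (fold 5.35), NW_021130959.1 219145–219470 (4.91), NW_021133049.1 601530–601882 (4.32), NW_021135128.1 282009–282321 (4.31) and NW_021135115.1 183662–184001 (4.18). The peak on NW_021133049.1 met no peak in the other 4 lists, while those on NW_021134528.1, NW_021135128.1 and NW_021135115.1 met a diapause H3K27me3 peak with folds of 5.93, 3.75 and 4.21. A diapause H3K27me3 peak was met by 26.6% of all non-diapause-only peaks. The 3 widest were at NW_021135154.1 2111181–2113145 (1965 bp), NW_021136314.1 553362–554935 (1574 bp) and NW_021135154.1 1539682–1541073 (1392 bp). A −log10 q under 3 was found for 132 of the 364, or 36.3%, against 8.26% of kept non-diapause peaks.

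The additional peaks were spread over most marked scaffolds. Either list had a peak on 1209 scaffolds, the pre-diapause list on 1193 and the non-diapause list on 1019. Of the 1209 scaffolds 896 (74.1%) had more pre-diapause than non-diapause peaks, 281 (23.2%) had equal numbers and 32 (2.65%) had fewer. A pre-diapause-only peak was found on 926 of them (76.6%). Concentration was much the same for new and old peaks: 50% of the pre-diapause-only peaks lay on 178 scaffolds and 50% of the non-diapause peaks on 188. The most heavily marked 10% of scaffolds, ranked for each set, held 39.8% of the pre-diapause-only and 38.3% of the non-diapause peaks. Across the 1209 scaffolds the numbers of pre-diapause-only and non-diapause peaks had a Spearman rho of 0.56, and both followed the span of the scaffold (rho 0.74 for pre-diapause-only and 0.75 for non-diapause peaks), which is the distance to its farthest peak end in any list. In quartiles of span, short to long, the pre-diapause list had 1.64, 1.73, 1.77 and 1.75 times as many peaks as the non-diapause list.

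**Figure D4:**
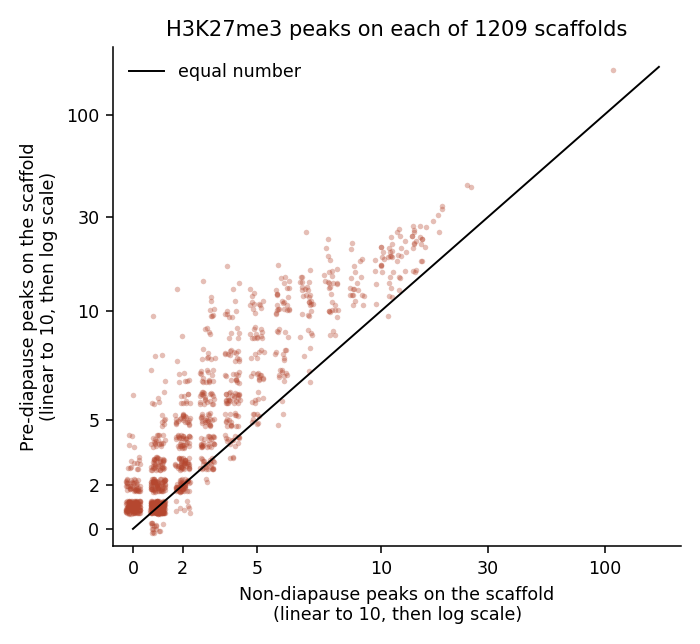
Number of H3K27me3 peaks on each of 1209 scaffolds, with pre-diapause on the vertical and non-diapause on the horizontal axis, both linear to 10 and logarithmic above. Points are shifted at random by up to 0.3 so that they can be seen apart. On 896 scaffolds the point lies above the line of equal numbers, and the single point at the top right is NW_021135154.1, with 168 pre-diapause and 109 non-diapause peaks.

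A single scaffold stood out by number. NW_021135154.1, with a span of 3.25 Mb, had 168 of the 6539 pre-diapause peaks, over 139.9 kb. It had 109 of the 3755 non-diapause peaks, over 82.3 kb. It held 95 pre-diapause-only peaks (2.98% of all) and 31 non-diapause-only peaks (8.52% of all), the highest number of each. The first share is close to the scaffold's share of all pre-diapause peaks. The second is above its share of all non-diapause peaks. Next by pre-diapause-only peaks came NW_021131364.1 with 27 of its 44 pre-diapause peaks and NW_021131371.1 with 19 of 43. NW_021130877.1 followed with 18 of 25 and NW_021137252.1 with 17 of 34. Over the whole list 48.7% of pre-diapause peaks were pre-diapause-only. The order is by number and not by share. NW_021130877.1 had 25 peaks at pre-diapause and 7 at non-diapause. NW_021131364.1 had 44 at pre-diapause and 24 at non-diapause within a span of 0.253 Mb. By non-diapause-only peaks NW_021135154.1 was followed by NW_021136100.1, with 6 of its 14 non-diapause peaks, and NW_021134911.1, with 6 of 12. Over the whole list the share was 9.69%.

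Scaffolds marked at pre-diapause alone mostly had 1 pre-diapause peak and a short span. There were 190 of them, with 272 peaks, against 16 scaffolds with 16 peaks at non-diapause alone. In lists of equal length 115 scaffolds were marked at pre-diapause alone. A single peak was found on 131 of the 190, 2 peaks on 43 and 3 or more on 16. Their median span was 35.1 kb, against 240.4 kb for scaffolds marked at both stages. Span is read from peak ends, so a scaffold with few peaks can have a short span whatever its length. Scaffold lengths were not used. The highest numbers were 6 peaks on NW_021130965.1 and 4 each on NW_021130916.1, NW_021133518.1, NW_021137571.1 and NW_021135354.1. Of the 190, 90 had an H3K9me3 peak at non-diapause and 79 had an H3K27me3 peak at diapause. The same counts were not made for scaffolds marked at both stages, so these have no background to be set against.

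Lists that the split did not use separated new from kept peaks. A diapause H3K27me3 peak was met by 24.9% (23.4–26.4) of pre-diapause-only peaks and by 65.9% (64.3–67.5) of kept pre-diapause peaks. Among non-diapause-only peaks the share was 26.6% (22.2–31.5), and its interval overlaps that of the pre-diapause-only peaks. A pre-diapause H3K9me3 peak was met by 47.7% (46.0–49.5) of the new and 83.8% (82.5–85.0) of the kept peaks. H3K9me3 at non-diapause was met by 28.1% (26.6–29.7) of the new and 83.2% (81.9–84.5) of the kept peaks. H3K9me3 at diapause was met by 18.5% (17.2–19.9) of the new and 44.9% (43.3–46.6) of the kept peaks. Of the 3186 pre-diapause-only peaks, 1122 (35.2%) met no peak in any of these 4 lists, and of the 364 non-diapause-only peaks 151 (41.5%) met none. Another 824 (25.9%) met H3K9me3 at pre-diapause and not at non-diapause, and 696 (21.8%) met it at both stages. Kept peaks were not counted by these combinations, so the shares cannot be called particular to new peaks.

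The difference in the diapause list was seen at every strength. Within quartiles of pre-diapause −log10 q, weak to strong, a diapause H3K27me3 peak was met by 22.2, 26.1, 27.9 and 25.1% of pre-diapause-only peaks and by 50.9, 59.1, 63.8 and 74.5% of kept peaks. The share was higher for kept peaks in each quartile, and that of new peaks lay within a narrow range. Kept peaks were also wider in each quartile, so that they could meet a peak more easily. Their median widths were 725, 668, 594 and 652 bp, against 493.5, 382, 363.5 and 375 bp for new peaks. Kept peaks had moreover been chosen for a call in both lists of this mark. The part of width and of this choice in the difference was not tested. For pre-diapause H3K9me3 the shares were 36.0, 49.6, 57.1 and 74.5% of new and 43.4, 73.5, 86.1 and 98.0% of kept peaks, and in the weakest quartile the intervals met (33.3–38.7 for new and 38.5–48.5 for kept peaks). Peaks that recurred at diapause had a median width of 460 bp, against 397 bp for pre-diapause-only peaks that did not.

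**Figure D5:**
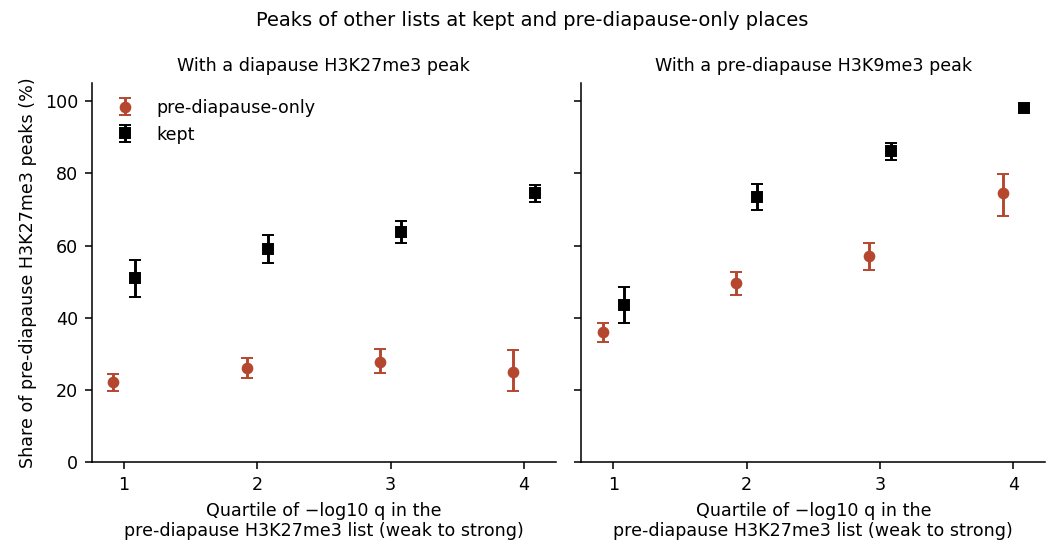
Share of pre-diapause H3K27me3 peaks (vertical axis, %) that met a diapause H3K27me3 peak (left) or a pre-diapause H3K9me3 peak (right), by quartile of −log10 q, for pre-diapause-only (circles) and kept peaks (squares). Bars are exact 95% binomial intervals. On the left new peaks lie between 22.2 and 27.9% and kept peaks between 50.9 and 74.5%; on the right both sets are higher in stronger quartiles.

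The other mark and the other later stage give a frame for these values, with no test of the difference. For H3K9me3, pre-diapause against non-diapause, 48.5% of pre-diapause peaks met no non-diapause peak, and those lay a median of 29.5 kb from one. The later peak was wider in 68.9% (67.4–70.4) of 3642 pairs, with a median ratio of 1.09, and 53 peaks joined neighbours while 14 were divided. For H3K27me3, diapause against the same non-diapause list, 39.5% of diapause peaks met none, at a median gap of 23.8 kb. There the diapause peak was wider in 49.9% (47.8–52.0) of 2268 pairs, with a median ratio of 1.00, and 21 peaks joined neighbours while 9 were divided. The −log10 q was higher at the later stage in 68.9% of the H3K9me3 pairs and 47.8% of the H3K27me3 diapause pairs, against 80.8% for H3K27me3 at pre-diapause, the same order as the shares of wider pairs.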

How the data were processed

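Chromatin of larval heads was immunoprecipitated and sequenced. Per the submitters' processing notes the tools included Bowtie2, Picard, MACS2, deepTools and ChIPseeker, with no settings given. The genome build, the use of the inputs and any pooling are not given in the sources used here. The deposited lists have 9 columns and no header, and their columns fit the MACS2 format for broad peaks. The deposited fold enrichment is a ratio of the library to its background, on a scale of its own in each list. The deposited −log10 p and −log10 q are those of the authors' peak caller, and the smallest −log10 q was 2.04 in both lists. The deposited score equals the whole part of 10 times −log10 q, with 6 exceptions among 29330 peaks, and was not used.

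Peaks were compared by overlap of at least 1 bp. Gaps are the bases between 2 peaks, and positions are 1-based. Groups were taken from the sample titles, and the inputs were not used here. A 1-to-1 pair is a pair of peaks that meet each other and no other. The rule for naming took the 5 largest gains and 3 largest losses of width, the 5 joined and 3 divided peaks with most partners, the 5 highest folds and the widest or farthest among single-stage peaks, and the scaffolds with most of them. Members, lists and rules were chosen with earlier results of these data known. The gene table used here places 0 of 17154 genes on these scaffolds, so genes were not analysed. Alternatives were lists of equal length, peaks with −log10 q of at least 3, an overlap of 50% of the peak, joined neighbours, and other choices of sequences. The procedure was tested on simulated data. Python 3.11.15, numpy 2.4.6, pandas 2.3.3, scipy 1.17.1 and matplotlib 3.10.9 were used.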

Additional observations from a re-analysis of the deposited data

Results flagged for a closer look

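Peaks were also called on the NC_ sequence, which the comparison left out and which is taken, from its RefSeq name and length alone, to be the mitochondrial genome. The H3K27me3 list had 1 peak there at pre-diapause, over 14515 bp, with a fold of 4.97, and 5 peaks at non-diapause, over 9508 bp together, with a highest fold of 4.46. This is a signal in data outside the comparison, with no control list to set it against, and it was present in all 6 lists. The pre-diapause H3K27me3 peak met all 5 non-diapause peaks. The H3K9me3 lists likewise had 1 peak of 14507 bp at pre-diapause (fold 5.62) and 3 at non-diapause (highest fold 6.26). At diapause each mark had 1 peak there, with a fold of 11.4 for H3K27me3 and 10.5 for H3K9me3.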

How the results depend on the processing

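Joining peaks under 500 bp apart changed no value, since none lay so close, and keeping the NC_ sequence added 1 joined peak. Of 111 values under 8 alternatives 78 stayed within counting error, or within 1.5 times for a count. The 78 include all values of the 500 bp and NC_ alternatives, which could change little. Direction was checked for the median width ratio alone, which stayed above 1 throughout. In lists of equal length pre-diapause-only peaks numbered 1221 (32.5%), non-diapause-only peaks 1198 (31.9%), joined peaks 22, divided peaks 1 and newly marked scaffolds 115. There 82.8% of pairs were wider at pre-diapause, the median gap of new peaks was 39560 bp, 8.52% of them lay within 5 kb, 27.2% met a diapause H3K27me3 peak and 59.2% a pre-diapause H3K9me3 peak. With −log10 q of at least 3, non-diapause-only peaks were 8.64%, joined peaks 27, divided peaks 2, the median gap 36657 bp and the share within 5 kb 10.6%. With an overlap of 50% of the peak, single-stage shares were 54.4% at pre-diapause and 11.9% at non-diapause, divided peaks 3, the median width ratio 1.12, the median gap 24764 bp and the share within 5 kb 23.0%. On scaffolds with peaks in both lists pre-diapause-only peaks were 46.5% and the share within 5 kb 15.3%; newly marked scaffolds cannot occur there. The remaining alternatives were chosen after seeing the data. With peaks under 2000 bp apart joined, the pre-diapause-only share was 47.3%, joined peaks 27, divided peaks 3, the median gap 36470 bp, the share within 5 kb 7.38%, the share with pre-diapause H3K9me3 49.8% and the median pre-diapause width 525 bp. Without NW_021135154.1 the share within 5 kb was 12.6%. The causes of these shifts were not tested. No paired analysis was possible because each stage had 1 list and no test was made.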

Other observations

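Wide peaks of low fold were present in every list but that of H3K27me3 at non-diapause. Peaks with a fold under 2 numbered 275 (4.21%) in the pre-diapause H3K27me3 list and 144 (3.83%) in the non-diapause list. Of these 18 were over 2000 bp wide at pre-diapause and 0 at non-diapause, and all 18 were kept peaks. The other 4 lists held such peaks too, 19 for H3K27me3 at diapause, and 21, 24 and 53 for H3K9me3 at non-diapause, pre-diapause and diapause. Among pre-diapause-only peaks 205 (6.43%) had a fold under 2, and 0 of those were over 2000 bp.

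Starts of scaffolds held similar shares of new and kept peaks. A peak began within 1000 bp of the scaffold start in 1.66% (1.25–2.17) of pre-diapause-only and 2.06% (1.60–2.60) of kept pre-diapause peaks.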
